A study of Homo sapiens with 10 samples.

Results

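Mucins are large proteins whose threonine and serine repeats are coated with O-linked sugars. MUC1, MUC4, MUC13 and MUC16 span the membrane of epithelial cells, whereas MUC5AC and MUC5B are secreted and form the gel of airway mucus. The signals of these 6 genes were taken from 10 oligonucleotide arrays of A549 and H1650, human lung carcinoma lines of the non-small cell type, out of 19775 genes with a probe set of a single gene symbol. The members were chosen by name, as every probe set that the platform's annotation gives to those symbols. Each gene is represented by its brightest probe set, judged by mean log2 over the 10 arrays. The other probe sets, of 18 in all, are given beside it and called the second, the third and the fourth in order of that mean.

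The series compared ID1 siRNA with control siRNA, nicotine with EGF, and both stimuli with none, in A549 and in H1650 (EGFR mutant, per the labels). In each line the arrays were 1 of ID1 siRNA with nicotine, 1 of ID1 siRNA with EGF, 1 of control siRNA with nicotine, 1 of control siRNA with EGF and 1 of control siRNA with no stimulus. Every culture went without serum for 48 h, and nicotine (1 µM) or EGF (100 ng/ml) then acted for 18 h. No array of ID1 siRNA without a stimulus was analysed here. The labels do not state whether the cultures were separate, so the errors and p-values measure the spread between these arrays, which may be technical.

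ID1 is a helix-loop-helix protein without a DNA-binding domain. It pairs with basic helix-loop-helix factors, which otherwise bind the E-box, a short palindromic motif in promoters and enhancers. MUC1 carries a cytoplasmic tail that binds beta-catenin and receptor kinases of the EGF receptor family. MUC5AC and MUC5B are neighbours in the mucin cluster of chromosome 11, where MUC5AC lies at chr11:1157953-1201138 and MUC5B at chr11:1223066-1262172 (GRCh38.p14). MUC1 lies at chr1:155185824-155192915, MUC13 at chr3:124905442-124934751, MUC4 at chr3:195746771-195811929 and MUC16 at chr19:8848844-9065751.

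Promoter sequences of MUC1, MUC13 and MUC16 are shown because ID1's partners are known for the E-box, and because these genes differ in signal on the arrays. Each runs from 250 bases before to 50 bases after the transcript start, 5′ to 3′ on the minus strand of GRCh38.p14, as given by RefSeq. Capitals mark the E-box, searched as CANNTG, whose reverse complement has the same letters.

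MUC1 at chr1:155192866-155193165: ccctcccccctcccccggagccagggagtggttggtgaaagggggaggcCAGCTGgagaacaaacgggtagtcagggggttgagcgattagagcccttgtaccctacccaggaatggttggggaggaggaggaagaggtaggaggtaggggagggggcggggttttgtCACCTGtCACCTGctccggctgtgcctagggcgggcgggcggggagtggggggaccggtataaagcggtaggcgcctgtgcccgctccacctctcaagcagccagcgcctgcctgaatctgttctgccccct

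MUC13 at chr3:124934702-124935001: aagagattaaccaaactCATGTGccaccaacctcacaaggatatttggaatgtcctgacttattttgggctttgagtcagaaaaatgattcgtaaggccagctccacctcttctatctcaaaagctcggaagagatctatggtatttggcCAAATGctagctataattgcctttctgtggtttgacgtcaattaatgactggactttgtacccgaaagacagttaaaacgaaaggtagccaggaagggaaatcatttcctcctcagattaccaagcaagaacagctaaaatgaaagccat

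MUC16 at chr19:9065702-9066001: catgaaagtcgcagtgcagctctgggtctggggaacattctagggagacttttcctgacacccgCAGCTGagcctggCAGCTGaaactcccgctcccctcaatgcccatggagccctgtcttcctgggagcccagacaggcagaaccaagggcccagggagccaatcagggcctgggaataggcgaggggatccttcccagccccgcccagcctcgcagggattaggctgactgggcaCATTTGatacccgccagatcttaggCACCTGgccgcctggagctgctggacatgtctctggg

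The MUC1 window held 3 E-boxes, with CAGCTG starting at -201 and CACCTG at -82 and -75 from the transcript start. It also held 4 GC boxes, the letters GGGCGG on either strand, of which those at -54, -50 and -46 overlap. The MUC13 window held 2 E-boxes, at -233 and -100, and 0 GC boxes. The MUC16 window held 4 E-boxes and 1 GC box. Among 35116 promoters of 300 bases, 68.7% held an E-box, 15.3% held 3 or more, and 45% held a GC box. In the MUC4 window there was 1 E-box and 1 GC box. These matches describe letters in a window, and no binding was measured. MUC5AC and MUC5B are named only.

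Signals are linear MAS5 values, 1 per probe set, scaled so that the trimmed mean of every array is 500. The median signal of all probe sets lay between 61.2 and 79.6, and a signal below the median of its array is called dim here. Where a gene was dim on every array of a group, that group's level is read only as a bound, and levels of different probe sets cannot be set against each other. On these terms MUC1 was above the median on all 10 arrays, MUC5AC, MUC5B and MUC13 on the 5 A549 arrays alone, and MUC16 on 0 of 10. MUC4 was above it on 2 arrays, the A549 controls with EGF and without a stimulus.

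Epithelial markers were measured in both lines. The keratins KRT7, KRT8, KRT18 and KRT19 with EPCAM and CDH1 summed to between 73350 and 118200 in A549 and between 103000 and 117500 in H1650. Markers of fibroblasts, endothelium and blood, 10 genes of which 3 were tested, summed to between 740.9 and 1332 in A549 and between 914.6 and 1640 in H1650, with 0 values at 0. Between lines 2 of the 6 epithelial markers were higher and 3 lower in A549, 83.3% beside 63.1% of all tested genes. EPCAM differed by -3.57 ± 0.15 and CDH1 by -3.37 ± 0.13 (log2, limma adjusted p = 3.02e-07 and 2.09e-07). With ID1 siRNA KRT19 and CDH1 rose in A549, 33.3% of the 6 beside 25.3% of all tested genes. Once arrays were centred on their median, 0 rose and 3 fell in A549. In H1650 0 passed, beside 12.3% of all tested genes. No epithelial marker was dim on every array of a line. Of the 10 others, 5 were dim on every A549 array and 6 on every H1650 array.

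The targeted gene checks the siRNA labels. ID1 had signals of 1343 under nicotine and 1343 under EGF in A549 cells given ID1 siRNA, against 3720 and 3049 with control siRNA. In H1650 it had 881 and 1031 with ID1 siRNA, against 4964 and 5121 with control siRNA. The unstimulated control array of H1650 had 5030. The array labelled unstimulated control of A549 had 1645, close to the ID1 siRNA arrays. That array also correlated across the 12514 tested genes at r = 0.980 and 0.975 with the A549 ID1 siRNA arrays, against 0.973 and 0.969 with the stimulated controls. The median signal of that array was 66.1. This median was 78.5 and 75.9 on the A549 ID1 siRNA arrays, and 65.2 and 61.2 on the stimulated controls. Genes are not independent replicates, and the values describe single arrays. Without it, 0 of the 3 tested mucins lost its call between the lines, nor did the tested sugar-adding enzymes, secretory genes, regulators or other mucins that passed with it. LGALS1, GRB2 and KRT18 lost theirs (limma adjusted p = 0.0889, 0.0675 and 0.0778).

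MUC1 was higher with ID1 siRNA in all 4 pairs, and passed the test in both lines at signals above the array medians. In A549 it was 760.3 with nicotine and 743 with EGF after ID1 siRNA, against 315 and 255 after control siRNA, and 373 on the unstimulated control array. Both ID1 siRNA arrays were above all 3 control arrays. In H1650 it was 3412 with nicotine and 2772 with EGF after ID1 siRNA, against 1897 and 1616 after control siRNA, and 1918 without a stimulus. The groups did not overlap in H1650 either. Of all tested genes, 41.2% were higher in both A549 pairs and 33.2% in both H1650 pairs. How many genes had groups without overlap was not counted. These are signals of RNA from whole cultures, so a change in the number of cells with the transcript and a change in transcript per cell cannot be told apart.

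In A549 the ID1 siRNA signal was 2.41 times the control signal under nicotine and 2.91 times under EGF. In H1650 it was 1.80 times under nicotine and 1.72 times under EGF. Over the 2 pairs of each line MUC1 was higher by 1.41 ± 0.12 on the log2 scale in A549 (2.65-fold, limma adjusted p = 0.000114) and by 0.81 ± 0.12 in H1650 (1.76-fold, limma adjusted p = 0.0045). Errors beside log2 differences are limma standard errors. Of 12514 genes tested, 25.3% passed in A549 and 12.3% in H1650, where 13.8% and 5.64% passed as higher and 11.4% and 6.66% as lower. The MUC1 change was larger in A549 by 0.59 ± 0.17 (log2), which missed the threshold after Benjamini-Hochberg adjustment (limma adjusted p = 0.053). Leaving out 1 array at a time, that difference ran between 0.46 and 0.73. It passed without either of the A549 nicotine arrays (0.73, limma adjusted p = 0.0455 and 0.0414) and missed the threshold without each of the others, with limma adjusted p up to 0.229.

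The other MUC1 probe sets differed in the same direction, and the second passed in both lines. The second gave 248 and 244 with ID1 siRNA against 113 and 63 with control siRNA in A549, with 127 on the unstimulated array. In H1650 it gave 1563 and 1176 with ID1 siRNA against 837 and 612 with control siRNA, with 1016 on the unstimulated array. Its log2 difference was 1.55 ± 0.22 in A549 (limma adjusted p = 0.00163) and 0.92 ± 0.22 in H1650 (limma adjusted p = 0.0279).

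The third, whose identifier carries the suffix for probes that can match other transcripts, was less regular. It read 159 and 100.2 with ID1 siRNA against 55.1 and 69.7 with control siRNA in A549, and 268 and 182 against 206 and 169 in H1650. The unstimulated arrays had 67.6 in A549 and 292 in H1650, so that in H1650 the highest value was a control. It missed the threshold in A549 (1.03 ± 0.34, limma adjusted p = 0.0547) and in H1650 (0.25 ± 0.34, limma adjusted p = 0.712).

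**Figure D1:**
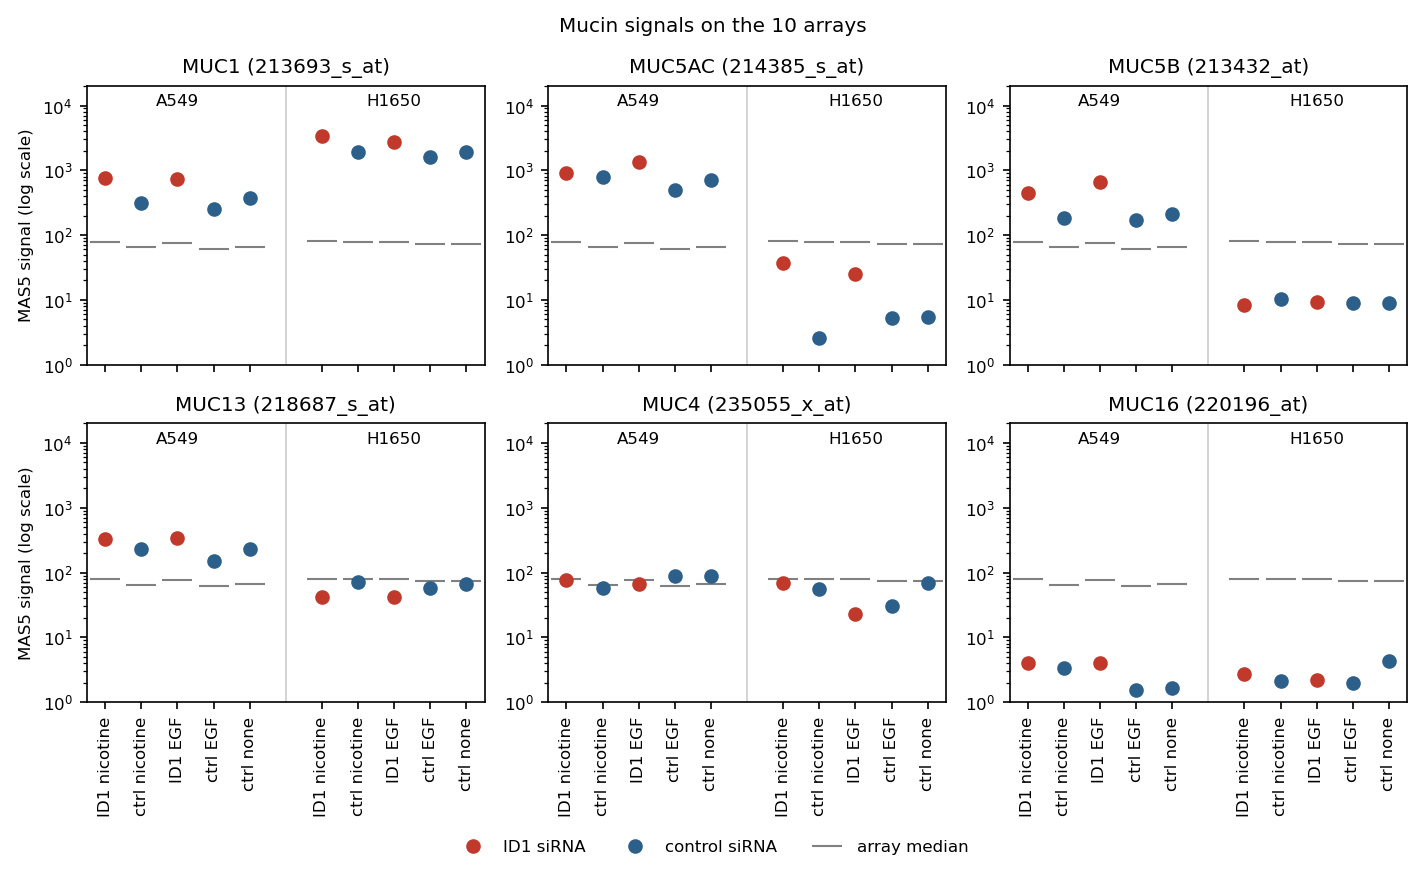
MAS5 signals on a log axis of the probe set that stands for each mucin, on the 5 A549 and 5 H1650 arrays, with ID1 siRNA in red and control siRNA in blue (1 array each). Grey bars give the median of all probe sets on each array: MUC1 stands above them on all 10 arrays, MUC5AC, MUC5B and MUC13 on the 5 A549 arrays, and MUC16 on none.

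MUC1 was lower in A549 than in H1650 under every condition. Its 5 signals ran between 255 and 760.3 in A549 and between 1616 and 3412 in H1650, without overlap. The log2 difference was -2.34 ± 0.13 (limma adjusted p = 1.47e-06), where 63.1% of all tested genes passed, 30.9% as higher and 32.2% as lower. Without the A549 array labelled unstimulated control it was -2.33. The A549 ID1 siRNA arrays stayed below the lowest H1650 array.

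The secreted mucins had the opposite distribution between the lines. MUC5AC had 920.6 with nicotine and 1353 with EGF after ID1 siRNA in A549, against 776 and 503 after control siRNA and 697 without a stimulus. Its H1650 signals were 37.6 and 25.2 after ID1 siRNA, against 2.58 and 5.25 after control siRNA and 5.48 without a stimulus, all dim. It was at least 10.5-fold higher in A549 (log2 difference 6.43 ± 0.46 as measured, limma adjusted p = 6.23e-06, and 6.30 without the A549 unstimulated array). This fold sets the A549 mean against the array medians of H1650, since the H1650 signals give only a bound. MUC5AC entered the tests through its A549 signals alone and had to differ, so its p-value between lines is not read as support.

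MUC5B, its neighbour on chromosome 11, had 442 with nicotine and 649 with EGF after ID1 siRNA in A549, against 181 and 173 after control siRNA and 215 without a stimulus. In H1650 its 5 signals lay between 8.45 and 10.4, all dim. MUC5B was at least 3.72-fold higher in A549. Its mean over both lines fell below the filter of the tests (mean log2 of at least 6.06, a signal of 66.7), so it was not among the 3 mucins tested, MUC1, MUC5AC and MUC13. With no filter, its log2 difference was 4.97 ± 0.40 (limma adjusted p = 9.98e-06), and 5.06 ± 0.49 without the A549 unstimulated array (limma adjusted p = 0.000135). Since the H1650 signals give only a bound, these p-values are not read as support.

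Within A549 the secreted mucins were higher with ID1 siRNA in both pairs, with pairs of unequal size. MUC5AC was 1.19-fold higher with nicotine and 2.69-fold higher with EGF. The mean log2 difference of 0.84 ± 0.48 missed the threshold (limma adjusted p = 0.239). MUC5B was 2.45-fold higher with nicotine and 3.76-fold higher with EGF. Its log2 difference of 1.60 ± 0.53 missed the threshold with no filter (limma adjusted p = 0.0837), and passed as 1.52 ± 0.31 when 16 was added to every signal (limma adjusted p = 0.00702).

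A 2-fold higher signal in both A549 pairs was found for MUC1 and MUC5B among 11322 genes above the median on all A549 arrays, of which 3.1% had it. Among the tested genes it was 3.85%, with MUC1 as the mucin among them. MUC5AC and MUC13 were higher in both A549 pairs but below 2-fold with nicotine. Of those 11322 genes, 40.4% were higher in both pairs by any amount.

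In H1650 the MUC5AC probe set passed the test with ID1 siRNA at signals that were all dim. The log2 difference was 3.07 ± 0.48 (limma adjusted p = 0.00608), and no fold is given because both groups were dim. The 2 ID1 siRNA arrays were above the 3 control arrays, and how many genes had this was not counted. In both H1650 pairs 33.2% of all tested genes were higher. When 16 was added to every signal, the difference was 1.24 ± 0.32 (limma adjusted p = 0.0311). No other MUC5AC probe set passed in H1650, where the log2 differences were -0.48 for the second, 0.27 for the third and 0.34 for the fourth.

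Of these, the fourth followed the pattern between lines. It had 285 and 761 with ID1 siRNA in A549, against 226 and 173 with control siRNA and 316 without a stimulus, and between 3.76 and 4.78 in H1650. The second did not, with 37.7 to 87.6 in A549 and 15.02 to 109 in H1650. Nor did the third, with 11.9 to 111 in A549 and 20.9 to 118 in H1650. The ID1 siRNA effect on MUC5AC was smaller in A549 than in H1650 by 2.23 ± 0.68 (log2 difference -2.23, limma adjusted p = 0.0699), a value that rests on the dim H1650 signals. Leaving out 1 array at a time, it ran between -3.03 and -1.43. It passed without either H1650 EGF array (-3.03, limma adjusted p = 0.00503 and 0.00214) and missed the threshold without each of the others, with -1.43 (limma adjusted p = 0.219 and 0.129) without either H1650 nicotine array. The second MUC5B probe set was dim on all 10 arrays (1.87 to 15.2).

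MUC13, a membrane mucin of the digestive and respiratory epithelium, was also an A549 transcript. It had 335 with nicotine and 341 with EGF after ID1 siRNA in A549, against 234 and 152 after control siRNA and 231 without a stimulus. The H1650 arrays gave 42.6 and 42.4 after ID1 siRNA, against 70.8 and 57.7 after control siRNA and 65.5 without a stimulus, all dim. It was at least 3.22-fold higher in A549 (log2 difference 2.18 ± 0.29 as measured, limma adjusted p = 0.000229, and 2.28 without the A549 unstimulated array). MUC13 too reached the filter of the tests through A549 alone, so its p-value between lines is not read as support.

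With ID1 siRNA, MUC13 was 1.43-fold higher with nicotine and 2.24-fold higher with EGF in A549, and its A549 groups did not overlap. Of all tested genes, 41.2% were higher in both A549 pairs, and how many had groups without overlap was not counted. The mean log2 difference was 0.84 ± 0.33 (limma adjusted p = 0.0971). In H1650 the signals were lower with ID1 siRNA in both pairs, with a log2 difference of -0.59 ± 0.33 (limma adjusted p = 0.302) between dim signals. The effects in the lines differed by 1.43 ± 0.47 on the log2 scale, which missed the threshold (limma adjusted p = 0.0859). The second MUC13 probe set had 97.1 and 93.1 with ID1 siRNA against 48.5 and 45.1 with control siRNA in A549, 62.7 without a stimulus, and at most 30.4 in H1650. Its 3 A549 control signals were dim. With ID1 siRNA in A549 its log2 difference of 1.02 missed the threshold (limma adjusted p = 0.49).

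MUC4 and MUC16, the remaining membrane mucins, gave no signal that could be followed. MUC4, a ligand of the receptor kinase ERBB2, is covered by 6 probe sets, of which 5 were dim on all 10 arrays. The brightest had 77.5 and 66.6 with ID1 siRNA in A549, against 56.8 and 87.4 with control siRNA and 88.5 without a stimulus. In H1650 it had 70.0 and 23.3 with ID1 siRNA, against 55.0 and 30.8 with control siRNA and 68.8 without a stimulus. The groups overlapped in both lines. MUC16, which carries the CA125 epitope and binds mesothelin, is covered by 1 probe set, and its signals were between 1.51 and 4.26.

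In counts, 3 of 6 mucins were tested, of which MUC5AC and MUC13 reached the filter through A549 alone. With ID1 siRNA, MUC1 was the 1 of 3 that passed in A549, as higher. In H1650 MUC1 passed as higher, and the result of MUC5AC at dim signals is not read as a change. The difference of the ID1 siRNA effect between lines was passed by 0 of 3 mucins, where 11.9% of all tested genes passed. At an unadjusted limma p under 0.05 it was 3 of 3 mucins, beside 3527 of the 12514 tested genes. For MUC5AC and MUC13 this difference rests in part on dim H1650 signals. Between lines no count is read, since genes that reach the filter through 1 line had to differ.

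**Figure D2:**
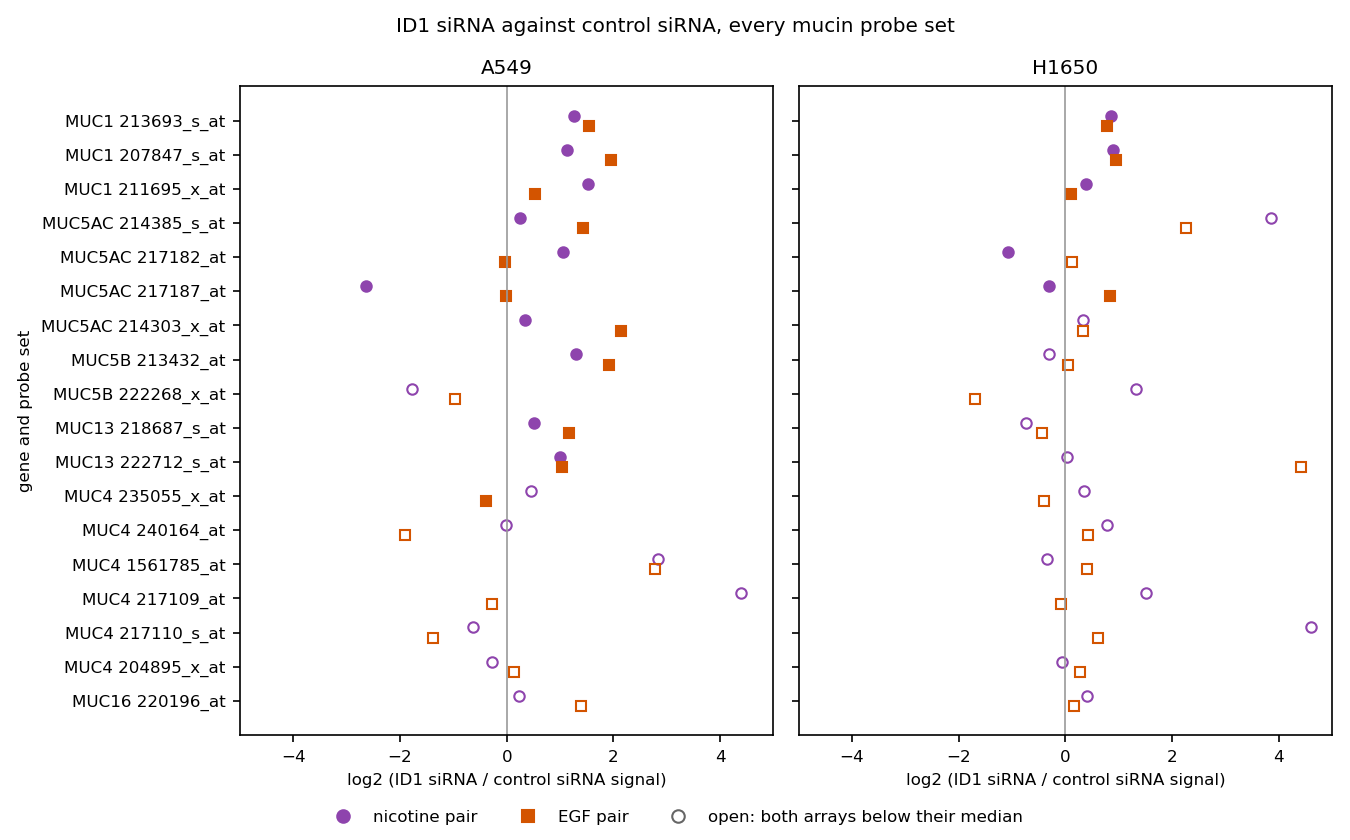
Log2 ratio of ID1 siRNA to control siRNA signal for each of the 18 mucin probe sets, for the nicotine pair (circles) and the EGF pair (squares) of A549 (left) and H1650 (right), 1 pair each. Open symbols are pairs with both arrays dim: the filled symbols of MUC1 in both lines, and in A549 those of the probe sets that stand for MUC5AC, MUC5B and MUC13, lie right of 0, and the widest ratios, such as those of MUC4, are open.

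A scaling shift moves with ID1 siRNA in A549. The median over all probe sets of an array was higher with ID1 siRNA by 0.27 (log2, nicotine) and 0.31 (EGF) for A549, and by 0.0042 and 0.10 for H1650. The tested genes alone had median differences of 0.01 and 0.08 in A549, and -0.03 and 0.01 in H1650. With every array centred on its median, which moves the median of all tested genes in A549 to -0.24 (log2), MUC1 stayed higher by 1.12 ± 0.12 in A549 (limma adjusted p = 6.8e-05) and by 0.76 ± 0.12 in H1650 (limma adjusted p = 0.00256). MUC5AC and MUC13 were then at 0.55 and 0.55 in A549. Of the foreign markers, COL1A1, a collagen chain, was higher with ID1 siRNA in A549 (1.14 ± 0.23, limma adjusted p = 0.00846). COL1A1 had 663.9 and 658.7 with ID1 siRNA in A549, against 403.4 and 222.6 with control siRNA. The unstimulated control had 853, so its groups overlap once that array is counted. The summed foreign markers were 1268 and 1269 with ID1 siRNA in A549, against 824 and 741 with control siRNA and 1332 without a stimulus. In H1650 they were 1640 and 1283 with ID1 siRNA, against 1153 and 915 with control siRNA and 1058 without a stimulus. Their part in the mucin values was not tested.

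**Figure D3:**
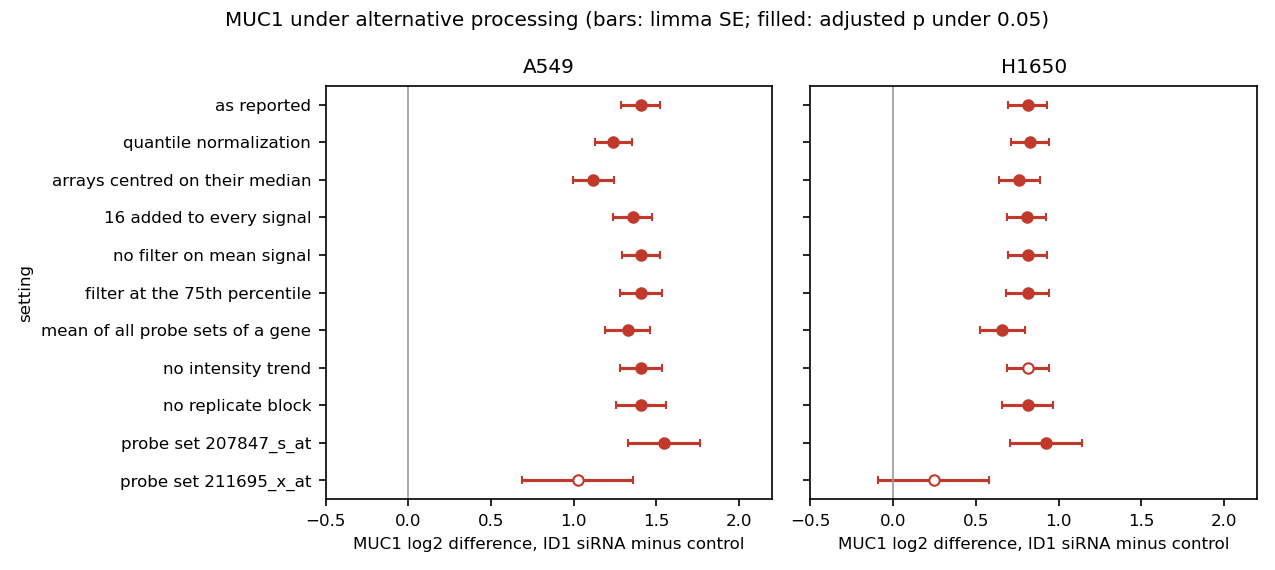
Log2 difference of MUC1 between ID1 siRNA and control siRNA in A549 (left) and H1650 (right) under each processing setting and for the other probe sets, with limma standard errors as bars. Filled points have an adjusted p under 0.05. All points lie right of 0, between 1.03 and 1.55 in A549 and between 0.25 and 0.92 in H1650, and the open points are the third probe set in both lines and H1650 without an intensity trend.

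The stimuli moved no tested mucin past the threshold. MUC1 had 743 with EGF against 760.3 with nicotine under ID1 siRNA in A549, and 255 against 315 under control siRNA. In H1650 it had 2772 with EGF against 3412 with nicotine under ID1 siRNA, and 1616 against 1897 under control siRNA. MUC1 was thus lower with EGF in 4 of 4 pairs, by 0.17 ± 0.12 (log2 difference -0.17, limma adjusted p = 0.686) in A549 and by 0.27 ± 0.12 (log2 difference -0.27, limma adjusted p = 0.469) in H1650. Of all tested genes, 0.032% passed for EGF against nicotine in A549 and 0.216% in H1650. By limma 0 mucins passed in either line, and 0 did at an unadjusted p under 0.05.

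The MUC5AC signals of A549 lay in opposite directions under the siRNAs. MUC5AC was 1.47-fold higher with EGF than with nicotine under ID1 siRNA (1353 against 920.6), and at 0.649 of the nicotine signal under control siRNA (503 against 776). MUC13 had 341 with EGF against 335 with nicotine under ID1 siRNA, and 152 against 234 under control siRNA. MUC5B had 649 with EGF against 442 with nicotine under ID1 siRNA, and 173 against 181 under control siRNA. Each of these is 1 array against 1, without a test.

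Against the unstimulated control arrays, 0 mucins passed by limma with nicotine or EGF, and 0 did at an unadjusted p under 0.05. Over all genes, 0% passed in both comparisons, while 189 genes with nicotine and 747 with EGF had an unadjusted p under 0.05. Without the A549 array labelled unstimulated control these numbered 102 and 327. MUC1 differed by -0.13 ± 0.20 (log2) with nicotine and by -0.40 ± 0.20 with EGF (limma adjusted p = 1 and 0.848). Without that array these values were -0.15 and -0.41. MUC5AC differed by -0.47 ± 0.73 with nicotine and -0.27 ± 0.73 with EGF, and MUC13 by 0.06 ± 0.46 and -0.40 ± 0.46. On the same terms MUC5AC was at -0.12 with nicotine and 0.08 with EGF, and MUC13 at -0.16 and -0.62.

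Against that same A549 array, whose ID1 signal was 1645, MUC1 was 2.04-fold higher with ID1 siRNA and nicotine and 1.99-fold higher with ID1 siRNA and EGF. In H1650 these ratios to the unstimulated control were 1.78 and 1.45. MUC5B in A549 was 2.06-fold and 3.02-fold above it. The 2 ID1 siRNA arrays of A549 had ID1 signals of 1343 each. They differ from the unstimulated control in siRNA and stimulus together, and the 2 cannot be told apart. Whether the mucin signals follow the ID1 signal was not tested.

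The enzymes that build the sugars of mucins changed in part. Of 31 O-glycosylation enzymes 22 were tested, and with ID1 siRNA 5 rose and 3 fell in A549, while 0 rose and 1 fell in H1650. Their median log2 difference was 0.09 in A549 and 0.03 in H1650, against 0.05 and -0.01 over all genes tested, and the shares called, 36.4% and 4.55%, stand beside 25.3% and 12.3% of all genes. With arrays centred on their median, the A549 counts were 5 higher and 8 lower.

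GALNT7, which adds further GalNAc sugars to partly glycosylated mucin peptides, fell in both lines. In A549 it had 1183 with nicotine and 1155 with EGF after ID1 siRNA, against 3734 and 2979 after control siRNA and 1710 without a stimulus. H1650 gave 2467 and 2518 after ID1 siRNA, against 9838 and 7422 after control siRNA and 9739 without a stimulus. The log2 differences were -1.51 ± 0.13 (limma adjusted p = 0.000118) in A549 and -1.78 ± 0.13 (limma adjusted p = 0.000571) in H1650. As with ID1, the A549 unstimulated control lay near the ID1 siRNA arrays.

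GALNT18, of the same transferase family, rose in A549, with 804 and 803 after ID1 siRNA against 317 and 307 after control siRNA (1.37 ± 0.22, limma adjusted p = 0.00287). ST3GAL1, which caps the core 1 sugar with sialic acid, had 472 and 550.4 after ID1 siRNA against 223 and 266 after control siRNA (1.07 ± 0.14, limma adjusted p = 0.00137). GCNT1, which starts the core 2 branch, passed in A549 (2.00 ± 0.52, limma adjusted p = 0.0234), with 158 and 112 after ID1 siRNA against 98.2 and 11.3 after control siRNA. Its EGF control array is dim and stands far below the others. The A549 unstimulated control had 492 for GALNT18, 244 for ST3GAL1 and 95.1 for GCNT1, each below both ID1 siRNA arrays. C1GALT1C1, the chaperone of the core 1 enzyme, fell by 0.52 ± 0.09 (limma adjusted p = 0.00546), and GALNT2 fell by 0.31 ± 0.10 (limma adjusted p = 0.0436).

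Between the lines 5 of the 22 enzymes were higher and 10 lower in A549, 68.2% beside 63.1% of all genes. GCNT3, the mucin-type core 2 and core 4 branching enzyme, had signals of 4934 to 6242 in A549 and 90.2 to 139 in H1650 (5.61 ± 0.13, limma adjusted p = 2.82e-08). GALNT3 was at least 109.8-fold lower and the fucosyltransferase FUT3 at least 11.2-fold lower in A549, where both were dim on every array. GALNT3 and FUT3 reached the filter through H1650 alone and had to differ, so the count is not read as a result about the list. ST6GALNAC2, a sialyltransferase that was dim on 4 of the 5 A549 arrays, differed by -3.70 ± 0.30 (limma adjusted p = 1.2e-05). GALNT18 and GALNT13 differed by 2.42 ± 0.24 and 2.25 ± 0.28 (limma adjusted p = 4.15e-05 and 0.000135), with GALNT18 dim on 1 H1650 array and GALNT13 on 4. The sizes of differences with dim arrays are uncertain. ST6GALNAC2 reached the filter through H1650 and GALNT13 through A549, so their p-values between lines are not read as support.

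Of 24 listed genes of the secretory epithelial programme, 12 were tested, and 9 were higher and 1 lower in A549, 83.3% beside 63.1% of all genes. The list's median was 1.43 (log2), against -0.03 over all genes. FOXA3, dim on every H1650 array, and CLCA2, dim on every A549 array, reached the filter through 1 line and so had to differ. The count and the median are therefore not read as a result about the list. FOXA2, a transcription factor of foregut epithelium, had 2373 to 2965 in A549 and 8.15 to 86.0 in H1650, dim on 4 of its arrays (6.79 ± 0.44, limma adjusted p = 3.73e-06). FOXA2 too reached the filter through A549, so its p-value between lines is not read as support. FOXA3 was at least 5.25-fold higher in A549, and AGR2, a disulfide isomerase needed for mucin folding in mice, differed by 4.16 ± 0.12 (limma adjusted p = 5.51e-08). CLCA2 was at least 10.1-fold lower in A549.

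With ID1 siRNA, 0 of the 12 rose and 1 fell in A549, where AGR2 fell by 0.35 ± 0.11 (limma adjusted p = 0.0445), and 1 rose and 0 fell in H1650 (8.33% in each line, beside 25.3% and 12.3% of all genes). After quantile normalization 0 fell in A549, and 1 rose and 1 fell in H1650. The H1650 gene that rose was SPDEF, a transcription factor of goblet cells, with 94.8 and 117.2 after ID1 siRNA against 66.0 and 43.5 after control siRNA and 71.5 without a stimulus in H1650 (at least 1.38-fold, limma adjusted p = 0.0462). In A549 SPDEF had 673 and 825 after ID1 siRNA against 1025 and 951 after control siRNA and 812.5 without a stimulus. Its A549 groups overlap once the unstimulated array is counted. The log2 difference of -0.41 ± 0.27 missed the threshold (limma adjusted p = 0.297).

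Among mucin partners and sheddases, 16 of 17 were tested. With ID1 siRNA 3 rose and 2 fell in A549, and 0 rose and 1 fell in H1650. The shares called, 31.2% and 6.25%, stand beside 25.3% and 12.3% of all genes. The A549 counts were 3 and 0 after quantile normalization and 3 and 5 after centring. ICAM1, an adhesion molecule and ligand of MUC1, had 645 and 541 after ID1 siRNA in A549, against 175 and 147 after control siRNA (1.88 ± 0.26, limma adjusted p = 0.00152). On the A549 unstimulated control array ICAM1 had 228. MMP14, a membrane protease that can shed MUC1, rose by 1.00 ± 0.24 (limma adjusted p = 0.0175) and the receptor kinase ERBB3 by 0.73 ± 0.16 (limma adjusted p = 0.0106). The galectin LGALS1 fell by 0.48 ± 0.14 (limma adjusted p = 0.0346) and the protease ADAM10 by 0.45 ± 0.11 (limma adjusted p = 0.019) in A549, and ADAM10 fell by 0.43 ± 0.11 in H1650 (limma adjusted p = 0.0396).

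Between lines 2 partners were higher and 9 lower in A549, 68.8% beside 63.1% of all genes. MSLN, the mesothelin that binds MUC16, was dim on 2 A549 arrays and differed by -3.62 ± 0.27 (limma adjusted p = 7.4e-06), EGFR by -2.34 ± 0.10 (limma adjusted p = 3.96e-07) and ERBB3 by -1.77 ± 0.17 (limma adjusted p = 2.65e-05). The kinase SRC, which phosphorylates the MUC1 tail, was higher in A549 by 1.67 ± 0.18 (limma adjusted p = 6.57e-05).

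Of 19 regulators of mucin transcription, 16 were tested, and 7 rose and 1 fell with ID1 siRNA in A549, while 1 rose and 1 fell in H1650. The shares called, 50% and 12.5%, stand beside 25.3% and 12.3% of all genes. The largest rises in A549 were those of JUN (0.84 ± 0.11, limma adjusted p = 0.000999), IRF1 (0.76 ± 0.16, limma adjusted p = 0.0106) and FOSL1 (0.70 ± 0.12, limma adjusted p = 0.00468), and SP1, a factor of the GC box, fell by 0.46 ± 0.10 (limma adjusted p = 0.0133). JUN had 2846 and 4256 after ID1 siRNA against 1535 and 2462 after control siRNA, and 4264 on the unstimulated control array, so its groups overlap once that array is counted. With arrays centred on their median, the A549 counts of this list were 3 higher and 6 lower. In H1650 PPARG rose by 0.46 ± 0.12 (limma adjusted p = 0.0377) and CREB1 fell by 0.71 ± 0.15 (limma adjusted p = 0.0186).

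Of 14 other mucin genes, 12 are on the array and 1 was tested. MUC3A, a membrane mucin of the intestine, was lower in A549 (111 to 192) than in H1650 (348 to 459) by a log2 difference of -1.44 ± 0.16 (limma adjusted p = 7.85e-05). With ID1 siRNA it differed by 0.47 ± 0.25 in A549 and -0.12 ± 0.25 in H1650 (limma adjusted p = 0.211 and 0.825).

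**Figure D4:**
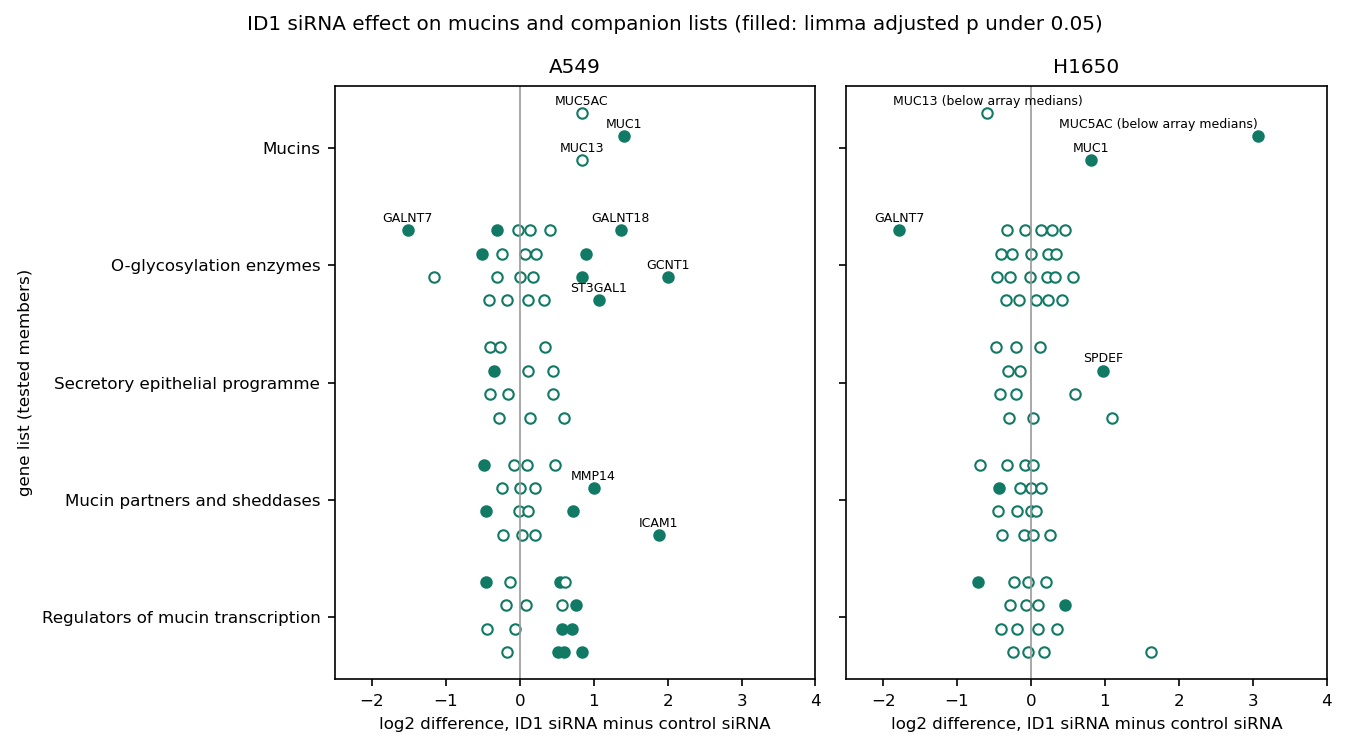
Log2 difference between ID1 siRNA and control siRNA of each tested gene of the mucins and of 4 companion lists, in A549 (left) and H1650 (right), 2 pairs per line, with genes of a list spread vertically for legibility. Filled points passed the test: in A549 5 O-glycosylation enzymes rose and 3 fell, and in H1650 GALNT7 was the enzyme that fell. The MUC5AC and MUC13 points of H1650 come from dim signals.

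The tested mucins were compared with all tested genes over the 10 arrays, after the mean of each line was subtracted. The genes most like MUC1 were SCIN, ZNF317 and IFT27 (Pearson r of 0.971, 0.962 and 0.960). SCIN had 180.0 and 186 with ID1 siRNA in A549, against 56.6 and 52.6 with control siRNA and 78.2 without a stimulus. In H1650 SCIN had 150.5 and 109 with ID1 siRNA, against 86.5 and 46.3 with control siRNA and 82.8 without a stimulus.

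TOMM22, LINC00896 and PIGL were most like MUC5AC (r of 0.985, 0.962 and 0.959), and GTPBP1, RBMX2 and ZNF107 most like MUC13 (r of 0.971, 0.960 and 0.960). For both mucins the H1650 part of these values comes from dim signals. TOMM22 had 6007 and 5992 with ID1 siRNA in H1650, against 2386 and 2918 with control siRNA and 2950 without a stimulus. Among the mucins r was 0.681 for MUC1 with MUC5AC, 0.395 for MUC1 with MUC13 and -0.312 for MUC5AC with MUC13. These correlations describe the 10 arrays, which share lines, stimuli and scaling, and the leading genes were picked for their r among 12514.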

How the data were processed

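The authors deposited 1 intensity per probe set of the U133 Plus 2.0 array, made with GCOS 1.4 and MAS5 per the submitters' processing notes. The labels mention log2, but the deposited intensity values are linear, with a trimmed mean (2% at each end) of 500.1 on every array. Log2 was taken here. All 10 columns were mapped to a sample by title.

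Of 54675 probe sets, 62 controls, 1801 with several symbols and 11721 without one were set aside. The 41091 others, 41037 of them matched by Entrez identifier, named 19775 genes. Each gene kept its probe set of highest mean log2 signal, and the 12514 whose mean reached the overall probe set median entered the tests. These ran in limma 3.58.1 (R 4.3.3), with moderation following intensity, Benjamini-Hochberg adjusted p-values and a threshold of 0.05. Line and condition (5 levels) were fitted to 10 arrays (4 residual degrees of freedom, prior 4.47) for the line and for the stimuli against none. ID1 siRNA and EGF against nicotine, within lines, were fitted to the 8 stimulated arrays with line and stimulus as pairs (2 residual degrees of freedom, prior 6.64). The replicate pairs come from line and stimulus, as the labels carry no replicate numbers.

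"At least" folds set the brighter group's mean against the higher of the dim signal and the array median. Members, gene lists and naming rules were chosen with earlier results of these data known. Text names the mucins, ID1, up to 3 called genes per list, direction and contrast, and the 3 genes most like each tested mucin. Alternatives changed the normalization, the filter, the signal added, the probe sets, the moderation, the pairs and the arrays kept. The fits were tested on simulated data of 12514 genes, with 50 changed at each fold. They recovered 40% of 2-fold and 74% of 4-fold changes for ID1 siRNA in A549, and 32% and 72% in H1650. Between lines these were 62% and 90%, and for the difference of effects 16% and 50%. Of 2-fold changes, 28% were recovered for nicotine and 30% for EGF against none. For EGF against nicotine it was 42% in A549 and 38% in H1650. Far fewer genes changed there than passed here for ID1 siRNA or line, so these shares may not hold for the data. The number of arrays, 1 per line and condition, limits the precision.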

Additional observations from a re-analysis of the deposited data

Results flagged for a closer look

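Genes of the companion lists and ID1 were singled out where the ID1 siRNA effect differed between A549 and H1650 in the test of the difference itself (log2, A549 minus H1650, limma, adjusted over 12514 genes). ICAM1 had the widest gap, 2.575 (adjusted p = 0.00366), with 1.88 in A549 and -0.69 in H1650. MMP14 differed by 1.385 (adjusted p = 0.0341), with 1.00 in A549 and -0.38 in H1650, FOSL1 by 1.113 (adjusted p = 0.00596), with 0.70 and -0.41, and AHR by 0.8093 (adjusted p = 0.0088), with 0.56 and -0.24. Among the sugar-adding enzymes GALNT18 differed by 1.147 (adjusted p = 0.0463), with 1.37 in A549 and 0.22 in H1650, and ST3GAL1 by 0.7749 (adjusted p = 0.043), with 1.07 and 0.29. SPDEF differed by -1.381 (adjusted p = 0.0473), with -0.41 in A549 and 0.98 in H1650, and SP1 by -0.5572 (adjusted p = 0.0433), with -0.46 and 0.10. ID1 itself differed by 1.077 (adjusted p = 0.00372), with -1.33 in A549 and -2.40 in H1650, so that its signal fell less in A549. None of the tested mucins passed this test (MUC1, MUC5AC and MUC13, adjusted p = 0.053, 0.0699 and 0.0859).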

How the results depend on the processing

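The number of arrays, 1 per line and condition, and signals near background limit these results, and the reason for each shift below was not tested. MUC1 rose with ID1 siRNA under 8 other settings and in each leave-one-out fit in A549, and in H1650 it passed under each but that without an intensity trend (adjusted p = 0.0787). With a filter at the 75th percentile or the mean of all probe sets, MUC5AC and MUC13 left the tested set, and MUC1 was 1 of 1 to pass between lines and with ID1 siRNA in H1650. With 16 added MUC5B joined the tested set, and 2 of 4 passed with ID1 siRNA in A549. Without an intensity trend 0 of 3 passed in H1650. For the difference of effects 1 of 3 passed with arrays centred on their median, 1 of 4 with 16 added and 1 of 1 with the 75th percentile filter, and leaving out 1 array gave 0 to 1. Without the replicate block, which pairs arrays by line and stimulus, MUC1 had adjusted p = 0.000315 in A549, 0.0122 in H1650 and 0.128 for the difference, and no mucin call changed.

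Over all genes, calls for ID1 siRNA in A549 numbered 3161, with 4914 after centring (948 higher, 3966 lower), 1747 with the mean of probe sets, 1394 without a trend and 1452 to 3598 leaving out 1 array (1455 and 1452 without the A549 EGF array of ID1 or control siRNA). In H1650 they numbered 1540, with 592 by the mean of probe sets, 1 without a trend and 981 to 1862 leaving out 1 array (1003 and 981 without the H1650 nicotine array of ID1 or control siRNA). The difference of effects had 1490, with 2432 after centring (623 higher, 1809 lower), 636 by the mean of probe sets, 199 without a trend, 957 without the block and 878 to 1665 leaving out 1 array (878 and 885 without the A549 EGF array of ID1 or control siRNA). EGF against nicotine had 4 calls in A549 (0 to 14 under other settings, 21 to 216 leaving out 1 array) and 27 in H1650 (0 to 106, and 88 to 266).

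Directions turned in results that rest on dim or unequal signals (log2). For MUC5AC, the third probe set gave -0.3176 between lines and -1.33 with ID1 siRNA in A549, the second gave -0.4791 in H1650, and the fourth and the second gave 0.9033 and 0.9957 for the difference. For MUC13, the second probe set gave 2.229 in H1650, -1.206 for the difference and -0.08245 for nicotine against none. EGF against nicotine in A549 for MUC5AC gave 0.05925 with quantile normalization, 0.03486 after centring, and 0.5159, 0.6669 and 1.895 with the fourth, the second and the third probe set. In H1650 it gave -0.09198 with 16 added and -0.005386 and -0.4648 with the second and the third. These gave 0.9876 and 1.622 for nicotine and 1.291 and 1.396 for EGF against none. Leaving out 1 array, EGF against nicotine ran from -0.6244 to 0.5555 for MUC5AC and -0.6225 to 0.02478 for MUC13 in A549, and from -0.5743 to 1.025 for MUC5AC in H1650. Nicotine against none ran from -0.2872 to 0.02944 for MUC1, -1.592 to 0.6579 for MUC5AC, -0.2248 to 0.3512 for MUC13 and -0.2055 to 1.363 for ID1. EGF against none ran from -0.614 to 0.08092 for MUC5AC, -0.8883 to 0.09787 for MUC13 and -0.3266 to 1.242 for ID1.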

Other observations

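MUC15, a membrane mucin outside the 6 genes, is given as values because it was noticed after the values were seen and was not tested. In H1650 it had signals of 1697 with nicotine and 616 with EGF after ID1 siRNA, against 925 and 328 after control siRNA and 1020 without a stimulus. The ratios of ID1 siRNA to control siRNA were thus 1.84 and 1.88, near those of MUC1 in that line. The ratios of EGF to nicotine were 0.363 with ID1 siRNA and 0.354 with control siRNA. In A549 MUC15 had between 1.02 and 3.54, all dim.

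GALNT5, an enzyme that starts O-glycosylation, was likewise noticed afterwards and not tested. In A549 it had 359 with nicotine and 403 with EGF after ID1 siRNA, against 169 and 166 after control siRNA and 248 without a stimulus. In H1650 it had between 11.5 and 20.9.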
